A study of Mus musculus with 2 samples.

Results

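The genes described here are 10 chemokines that the gut lining can make. They were selected by symbol from 22350 gene symbols listed in at least 1 of 2 libraries: Cxcl9, Cxcl10, Cxcl11, Cxcl1, Cxcl5, Ccl25, Ccl28, Cxcl16, Cx3cl1 and Ccl20. All 10 were listed in both libraries. The libraries held messenger RNA of colon epithelial cells, 1 from Pkm2-/- and 1 from Wild Type mice of the C57BL/6 strain. Both genotypes had been given 2.5% DSS (dextran sulfate sodium), which damages the colon epithelium, for 3 days, so no untreated colon was part of the comparison. The construction of the knockout allele, the cells in which it is lost, the age of the mice and the number of animals behind a library are not stated in the sources at hand.

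Chemokines are small secreted proteins that attract leukocytes carrying the matching receptor. Cxcl9, Cxcl10 and Cxcl11 bind CXCR3 on activated T cells and NK cells and are classical products of interferon-stimulated cells. Cxcl1 and Cxcl5 bind CXCR2 on neutrophils, Ccl25 and Ccl28 guide CCR9-bearing and CCR10-bearing lymphocytes to mucosae without inflammation, Cxcl16 and Cx3cl1 are made as membrane-anchored proteins that proteases can release, and Ccl20 attracts CCR6-bearing cells.

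The values are FPKM (fragments per kilobase, relative to all mapped fragments), so levels of different genes are compared per length. The lowest values in each library clustered at the worth of 1 fragment, which implied about 20700000 fragments in the Pkm2-/- library and 18700000 in the Wild Type library. At 1 FPKM, a transcript of 2 kb then rested on about 41 fragments in the Pkm2-/- library and 37 in the Wild Type library. Pkm, the gene that encodes the M1 and M2 pyruvate kinase isoforms and is targeted in the knockout, stood at 86.2 FPKM in the Pkm2-/- library and 281 FPKM in the Wild Type library. Because each genotype has a single library, no test was run, every comparison describes these 2 libraries, and the 95% counting intervals given cover counting error only. The 8 epithelial markers, among them Epcam and Krt8, summed to 5973 FPKM in the Pkm2-/- library and 5017 FPKM in the Wild Type library, and none was at 0 in either, so the defining markers of the labelled cell type were present.

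The sequences upstream of 4 of the genes are shown first, chosen with the levels of the genes known. They belong to Cxcl9 and Cxcl10, whose levels differed widely between the libraries. The others belong to a low neutrophil chemokine (Cxcl1) and an abundant homeostatic one (Ccl28). RefSeq windows on GRCm38.p6 were at hand for 7 of the 10 genes, and none was used for Cxcl11, Cxcl5 and Cxcl16. Each run is the 250 bases before the annotated start site, 5′ to 3′ on the gene's strand: chr5:92328080-92328329 (minus strand), chr5:92348890-92349139 (minus strand), chr5:90890995-90891244 (plus strand) and chr13:119623569-119623818 (plus strand). Capitals mark matches, on either strand, to GAAANNGAA (the core of the interferon-stimulated response element, ISRE), GGNNNTTCC (a kB motif, bound by NF-kB factors) or TTCNNNGAA (the GAS motif of interferon-gamma target genes).
Cxcl9: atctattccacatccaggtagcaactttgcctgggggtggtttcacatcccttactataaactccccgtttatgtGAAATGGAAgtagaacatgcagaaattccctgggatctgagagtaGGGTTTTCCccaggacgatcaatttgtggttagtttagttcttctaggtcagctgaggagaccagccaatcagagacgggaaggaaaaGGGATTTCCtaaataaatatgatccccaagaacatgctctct
Cxcl10: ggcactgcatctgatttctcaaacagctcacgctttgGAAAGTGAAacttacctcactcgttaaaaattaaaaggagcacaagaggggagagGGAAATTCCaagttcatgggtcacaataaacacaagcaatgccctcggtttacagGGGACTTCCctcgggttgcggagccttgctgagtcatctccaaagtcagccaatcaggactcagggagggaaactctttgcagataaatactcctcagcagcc
Cxcl1: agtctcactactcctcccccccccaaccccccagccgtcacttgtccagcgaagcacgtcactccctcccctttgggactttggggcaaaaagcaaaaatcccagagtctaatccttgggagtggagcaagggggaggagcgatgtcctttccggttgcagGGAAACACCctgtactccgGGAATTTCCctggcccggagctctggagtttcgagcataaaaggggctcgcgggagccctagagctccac
Ccl28: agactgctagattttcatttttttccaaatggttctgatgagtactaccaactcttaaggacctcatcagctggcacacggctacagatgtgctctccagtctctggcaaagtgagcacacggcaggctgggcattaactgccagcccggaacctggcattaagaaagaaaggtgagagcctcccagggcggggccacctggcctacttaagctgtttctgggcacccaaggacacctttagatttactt

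In the Cxcl9 window the letters of the ISRE core lay 175 to 167 bases upstream of the start site, and those of the kB motif began 130 and 42 bases upstream. In the Cxcl10 window the ISRE core lay 213 to 205 bases upstream, and kB motifs began 158 and 103 bases upstream, the first of them reading as a match on both strands. The Cxcl1 window held 2 kB matches and no ISRE core, and the Ccl28 window held no match. Among the other windows, those of Cx3cl1 and Ccl20 held 1 kB match each and both start sites of Ccl25 held none. An ISRE core was thus present in the windows of Cxcl9 and Cxcl10 and in none of the windows of Cxcl1, Cx3cl1, Ccl20, Ccl25 and Ccl28. No window of the 7 genes held the GAS letters TTCNNNGAA. Only these strict letters were searched, so GAS-like elements that depart from them were not looked for and may be present. Of 32851 windows of the same length over all genes, 7.13% held the ISRE core, 15.7% the kB motif and 7.02% the GAS motif. A match describes letters in these windows, binding was not measured, and a link between matches and levels was not tested.

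**Figure D1:**
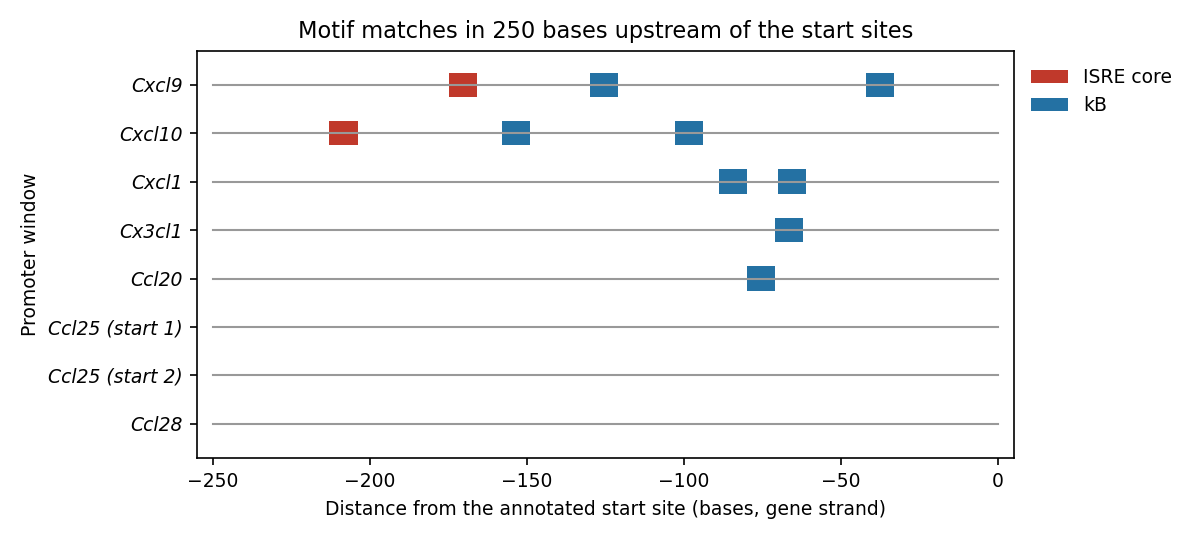
Positions of ISRE core (red) and kB (blue) matches on either strand in the 250 bases upstream of the start sites of 7 chemokine genes (x axis, bases from the start site; 1 row per start site). Cxcl9 and Cxcl10 have 1 ISRE core each, and the windows of Ccl25 and Ccl28 have no match.

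The CXCR3 ligands had the highest ratios of Pkm2-/- over Wild Type among the 10 chemokines. Cxcl9 (ENSMUSG00000029417) lies on chromosome 5 at 92321347 to 92328079 of GRCm38. It stood at 17.9 FPKM in the Pkm2-/- library and 0.854 FPKM in the Wild Type library. That is a 20.9-fold higher level in the Pkm2-/- library (95% counting interval 15.6 to 28.9), resting on about 1067 fragments there and 46 in the Wild Type library. With the shortest annotated transcript the interval was 9.26 to 57.3, on about 137 fragments in the Pkm2-/- library and 6 in the Wild Type library. Among the 12429 genes that averaged 1 FPKM or more over both libraries, its log2 ratio of 3.35, taken after adding 1 FPKM to both values, was the 23rd highest.

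Cxcl10 (ENSMUSG00000034855, chromosome 5, 92346638 to 92348889) stood at 44.3 FPKM in the Pkm2-/- library and 7.16 FPKM in the Wild Type library, 6.19-fold higher in the Pkm2-/- library (95% counting interval 5.48 to 7.01). Its log2 ratio of 2.47 ranked 37th of the same genes. Cxcl10 was the most abundant CXCR3 ligand in both libraries, but the distance to Cxcl9 was smaller in the Pkm2-/- library, where it was 2.48 times the level of Cxcl9, than in the Wild Type library, where it was 8.38 times that level. The counting intervals of the folds of Cxcl9 and Cxcl10 did not overlap. Cxcl10 shares 5.91% of its exon bases with Art3 on the opposite strand, which was listed at 0.119 FPKM in the Pkm2-/- library and 0.106 FPKM in the Wild Type library.

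Cxcl11 (ENSMUSG00000060183, chromosome 5, 92359544 to 92365485) stood at 4.02 FPKM in the Pkm2-/- library and 0.816 FPKM in the Wild Type library, 4.92-fold higher in the Pkm2-/- library (95% counting interval 3.71 to 6.62). Its log2 ratio of 1.47 ranked 87th. GENCODE M21 annotates Cxcl11 as a polymorphic pseudogene, since C57BL/6 mice carry a frameshift in it, so the transcript is not expected to yield the full chemokine in this strain. The gene also shares 41.7% of its exon bases with Gm2673, a processed pseudogene on the opposite strand, at 1.69 FPKM in the Pkm2-/- library and 0.397 FPKM in the Wild Type library. Strand use of the libraries is not stated in the sources at hand, so reads from the shared bases cannot be told apart and the level of Cxcl11 is uncertain.

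All 3 CXCR3 ligands were thus counted as at least 2-fold higher in the Pkm2-/- library on the log2(FPKM + 1) scale, against 1.42% of the 12429 genes. Their median log2 ratio was 2.47, while the median over all these genes was 0.06. Together they summed to 66.2 FPKM in the Pkm2-/- library and 8.83 FPKM in the Wild Type library, a 7.50-fold difference. Of the other 7 chemokines, 5 averaged 1 FPKM or more, and none of these was counted in either direction, where 1.9% of all genes were at least 2-fold lower. The 7 summed to 57.3 FPKM in the Pkm2-/- library and 57.9 FPKM in the Wild Type library.

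**Figure D2:**
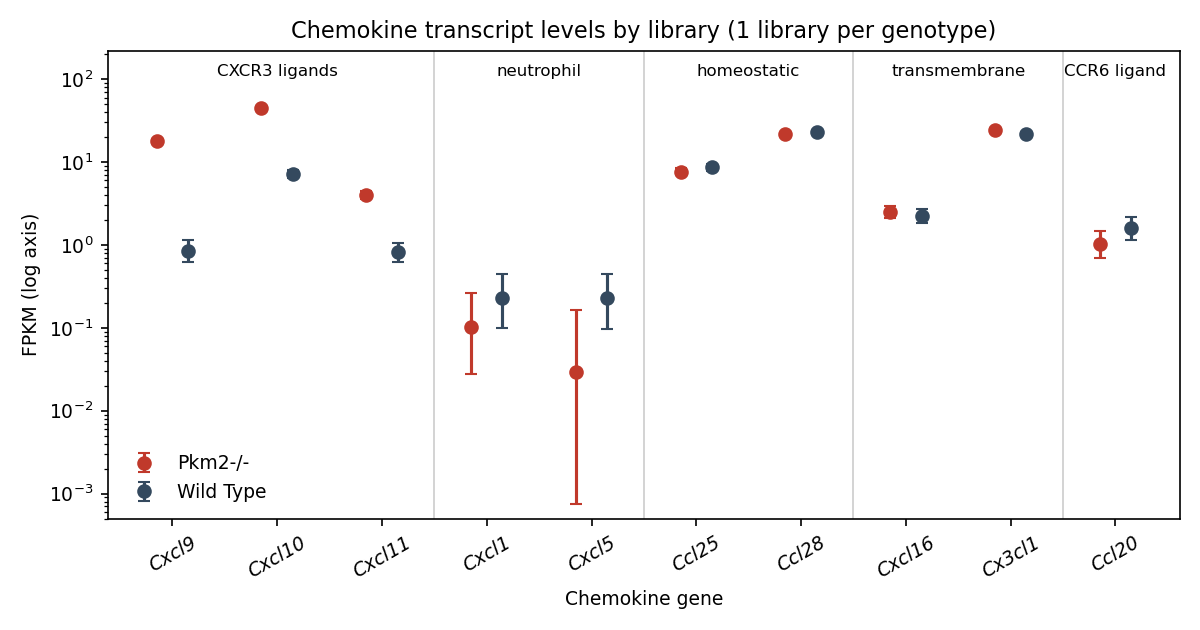
FPKM of the 10 chemokine genes (y axis, log scale) in the Pkm2-/- library (red, left) and the Wild Type library (blue, right), by role. Bars are 95% counting intervals of 1 library, not replicate error, and are smaller than the points for abundant genes. The CXCR3 ligands lie higher in the Pkm2-/- library, whereas Ccl25, Ccl28, Cxcl16 and Cx3cl1 lie at nearly the same height in both.

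The neutrophil chemokines Cxcl1 and Cxcl5 were close to the detection limit in both libraries. Cxcl1 (ENSMUSG00000029380, chromosome 5, 90891241 to 90893115) stood at 0.102 FPKM in the Pkm2-/- library and 0.227 FPKM in the Wild Type library, on about 4 fragments in the Pkm2-/- library and 8 in the Wild Type library. The plain ratio of Pkm2-/- over Wild Type was 0.447, with a 95% counting interval of 0.0998 to 1.69 that included 1. Cxcl5 (ENSMUSG00000029371, chromosome 5, 90759360 to 90761624) stood at 0.0295 FPKM in the Pkm2-/- library and 0.227 FPKM in the Wild Type library, on about 1 fragment in the Pkm2-/- library and 8 in the Wild Type library, a ratio of 0.130 (95% counting interval 0.00255 to 0.844). The upper bound of the Cxcl5 interval was 1.01 when the shortest instead of the longest annotated transcript was used, so the direction was not resolved at this depth. Both genes averaged below the 1 FPKM required for the counts, and their log2 ratios on the FPKM + 1 scale were -0.16 for Cxcl1 and -0.25 for Cxcl5.

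The homeostatic chemokines were abundant and similar in the 2 libraries. Ccl28 (ENSMUSG00000074715, chromosome 13, 119623819 to 119654359), which draws IgA-producing plasma cells to the colon, stood at 21.6 FPKM in the Pkm2-/- library and 23.1 FPKM in the Wild Type library. The ratio was 0.936, with a 95% counting interval of 0.874 to 1.003. Ccl25 (ENSMUSG00000023235, chromosome 8, 4325210 to 4360020), best known from the small intestine and thymus, stood at 7.69 FPKM in the Pkm2-/- library and 8.69 FPKM in the Wild Type library, a ratio of 0.885 (95% counting interval 0.769 to 1.02). Ccl25 shares 2.74% of its exon bases with Elavl1 on the opposite strand, at 32.2 FPKM in the Pkm2-/- library and 23.0 FPKM in the Wild Type library. The median log2 ratio of the pair was -0.12, against 2.47 for the CXCR3 ligands and -0.20 for the pair of neutrophil chemokines. The intervals of Ccl25 and Ccl28 lay within 2-fold either way, so a difference of the size seen for any CXCR3 ligand lay outside their counting error.

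The transmembrane chemokines and Ccl20 were also within 2-fold. Cx3cl1 (ENSMUSG00000031778, chromosome 8, 94772009 to 94782427), also called fractalkine, stood at 24.4 FPKM in the Pkm2-/- library and 21.9 FPKM in the Wild Type library. Its ratio was 1.12 (95% counting interval 1.04 to 1.20, and 0.898 to 1.39 with the shortest annotated transcript). Cxcl16 (ENSMUSG00000018920, chromosome 11, 70453983 to 70459984), the ligand of CXCR6, stood at 2.48 FPKM in the Pkm2-/- library and 2.24 FPKM in the Wild Type library, a ratio of 1.11 (95% counting interval 0.863 to 1.44). It shares 18.3% of its exon bases with Zmynd15 on the opposite strand, listed at 0.815 FPKM in the Pkm2-/- library and 0.431 FPKM in the Wild Type library. Ccl20 (ENSMUSG00000026166, chromosome 1, 83116766 to 83119167) stood at 1.03 FPKM in the Pkm2-/- library and 1.60 FPKM in the Wild Type library, a ratio of 0.643 (95% counting interval 0.391 to 1.06) on about 30 fragments in the Pkm2-/- library and 42 in the Wild Type library.

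**Figure D3:**
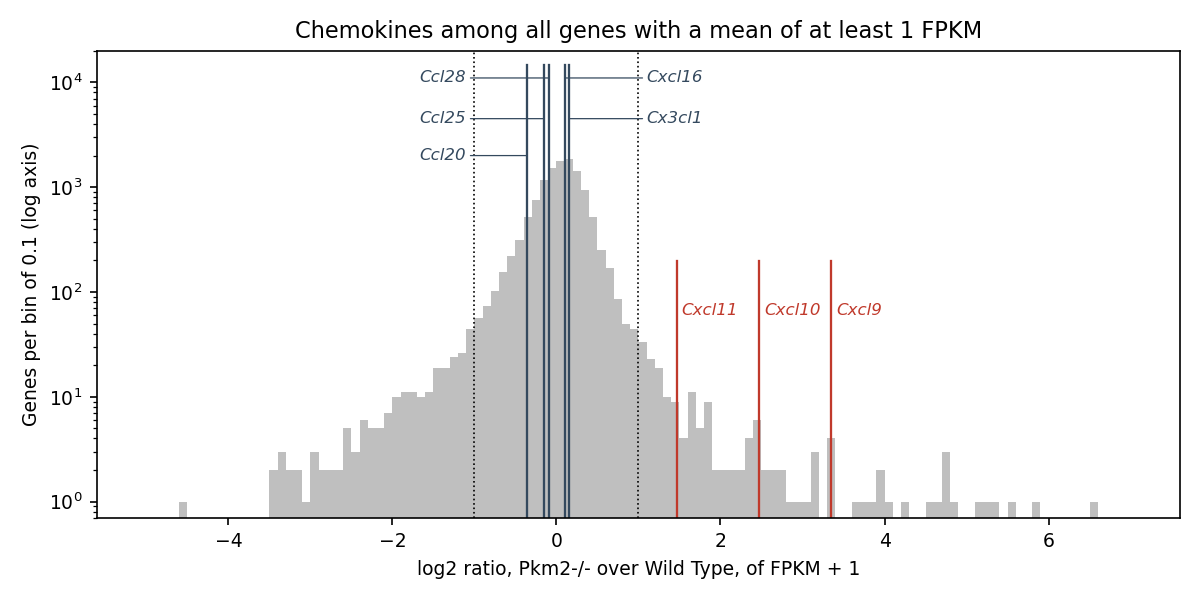
Histogram of the log2 ratio of Pkm2-/- over Wild Type, of FPKM + 1, for 12429 genes (y axis, genes per bin, log scale), with the 8 chemokines that averaged 1 FPKM or more drawn as lines. Dotted lines mark 2-fold. The 3 CXCR3 ligands (red) lie between 1.47 and 3.35, and the other 5 (blue) lie between -0.36 and 0.15.

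The order of the chemokines by level therefore differed between the libraries. In the Pkm2-/- library Cxcl10 was the highest, followed by Cx3cl1, Ccl28, Cxcl9, Ccl25, Cxcl11, Cxcl16, Ccl20, Cxcl1 and Cxcl5. On the longest annotated transcript, neighbours in that order had counting intervals that did not overlap, except Cxcl1 and Cxcl5. The shortest annotated transcript implied fewer fragments in the Pkm2-/- library, about 190 for Cx3cl1, 623 for Ccl28 and 137 for Cxcl9. Intervals on it would be wider, so the order of these genes may not be resolved. In the Wild Type library the order was Ccl28, Cx3cl1, Ccl25, Cxcl10, Cxcl16, Ccl20, Cxcl9, Cxcl11, Cxcl1 and Cxcl5. There the intervals on the longest transcript overlapped for Ccl28 with Cx3cl1, Ccl25 with Cxcl10, Cxcl16 with Ccl20, Cxcl9 with Cxcl11 and Cxcl1 with Cxcl5. More neighbours may overlap on the shortest. Cxcl10 made up 35.9% of the summed FPKM of the 10 genes in the Pkm2-/- library and 10.7% in the Wild Type library, and Cxcl9 made up 14.5% in the Pkm2-/- library and 1.28% in the Wild Type library. Ccl28 made up 17.5% in the Pkm2-/- library and 34.6% in the Wild Type library at a ratio of its own levels of 0.936.

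The remaining chemokine genes were examined as a list of 27, of which 20 were listed in at least 1 library and 6 averaged 1 FPKM or more. Of these 6, the Pkm2-/- library had 2 at least 2-fold higher and none lower, with a median log2 ratio of 0.37. The shares over all genes were 1.42% higher and 1.9% lower. Ccl5, a chemokine made in quantity by activated T cells and NK cells, stood at 22.2 FPKM in the Pkm2-/- library and 5.44 FPKM in the Wild Type library, 4.08-fold higher (95% counting interval 3.12 to 5.38). Ccl8 stood at 2.58 FPKM in the Pkm2-/- library and 0.389 FPKM in the Wild Type library, a ratio of 6.64 (95% counting interval 2.13 to 24.0) on about 27 fragments in the Pkm2-/- library and 4 in the Wild Type library. Ccl6 was the most abundant chemokine transcript of all and was close in both libraries, at 307 FPKM in the Pkm2-/- library and 303 FPKM in the Wild Type library. Cxcl2, a further CXCR2 ligand named here after its values were seen, stood at 0.0920 FPKM in the Pkm2-/- library and 0.845 FPKM in the Wild Type library, a ratio of 0.109 (95% counting interval 0.0282 to 0.309) below the mean required for the counts.

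The receptors of these chemokines, which leukocytes carry, were low in both libraries. Cxcr3, the receptor of Cxcl9, Cxcl10 and Cxcl11, stood at 0.812 FPKM in the Pkm2-/- library and 0.316 FPKM in the Wild Type library, a ratio of 2.57 (95% counting interval 1.24 to 6.04). Cxcr6, the receptor of Cxcl16, stood at 1.46 FPKM in the Pkm2-/- library and 0.691 FPKM in the Wild Type library, a ratio of 2.11 (95% counting interval 1.29 to 3.50). On the log2(FPKM + 1) scale Cxcr6 was at 0.54, and as the one receptor of 18 that averaged 1 FPKM or more it was not counted as 2-fold apart. For Ccr9, the receptor of Ccl25, the ratio was 2.94 (95% counting interval 1.96 to 4.52), at 0.967 FPKM in the Pkm2-/- library and 0.329 FPKM in the Wild Type library. Cx3cr1, the receptor of Cx3cl1, was at 0.267 FPKM in the Pkm2-/- library and 0.0264 FPKM in the Wild Type library, a ratio of 10.1 (95% counting interval 2.82 to 98.6) on about 25 fragments in the Pkm2-/- library and 2 in the Wild Type library.

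The counting intervals of the ratios of the other receptors included 1. Ccr10, a receptor of Ccl28, stood at 0.924 FPKM in the Pkm2-/- library and 0.868 FPKM in the Wild Type library. Ccr6, the receptor of Ccl20, stood at 0.167 FPKM in the Pkm2-/- library and 0.183 FPKM in the Wild Type library. Cxcr2, the receptor of Cxcl1 and Cxcl5, stood at 0.0163 FPKM in the Pkm2-/- library and 0.0818 FPKM in the Wild Type library, on about 1 fragment in the Pkm2-/- library and 5 in the Wild Type library.

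**Figure D4:**
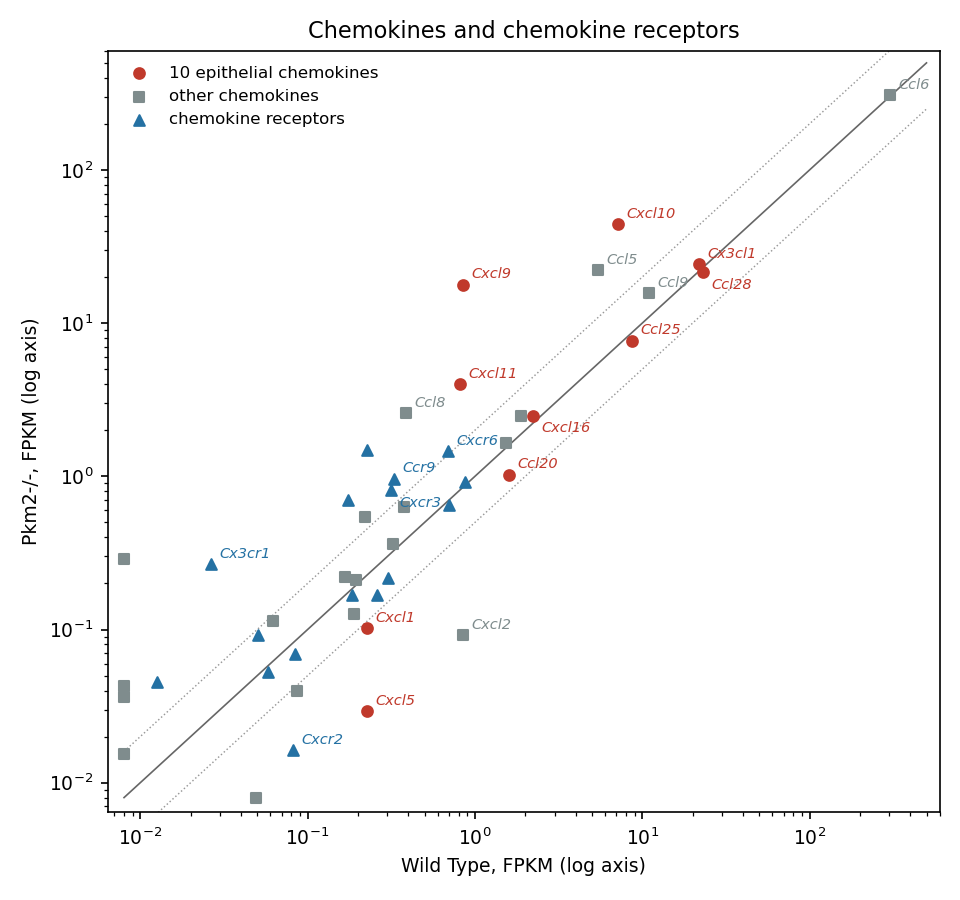
FPKM in the Pkm2-/- library (y axis, log scale) against the Wild Type library (x axis, log scale) for the 10 chemokines (red circles), other chemokines (grey squares) and chemokine receptors (blue triangles). The solid line marks equal levels and the dotted lines 2-fold, and genes listed in 1 library alone are drawn at the edge of the other axis. Cxcl9, Cxcl10, Cxcl11, Ccl5 and Ccl8 lie above the upper dotted line, and Ccl28, Cx3cl1, Ccl25, Cxcl16 and Ccl6 lie near equality.

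Atypical receptors, which bind chemokines without classical signalling, and proteases that process chemokines were compared as a list of 8. Of these, 5 averaged 1 FPKM or more and none was at least 2-fold apart. At the shares over all genes, 1.42% higher and 1.9% lower, a list this short would hold few or no such genes. Adam10, a protease that sheds Cxcl16 and Cx3cl1 from the membrane, was the most abundant at 33.1 FPKM in the Pkm2-/- library and 26.6 FPKM in the Wild Type library. Dpp4, a peptidase that trims the ends of CXCR3 ligands, stood at 11.2 FPKM in the Pkm2-/- library and 12.8 FPKM in the Wild Type library.

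Genes upstream of the chemokines were compared by pathway. Of 9 genes of the interferon-gamma axis, 8 averaged 1 FPKM or more, with a median log2 ratio of 0.59. Of these 8, the Pkm2-/- library had 4 at least 2-fold higher and none lower. Over all genes, 1.42% were at least 2-fold higher and 1.9% at least 2-fold lower. Irf1, a factor induced by interferon-gamma and the most abundant gene of the list, stood at 247 FPKM in the Pkm2-/- library and 103 FPKM in the Wild Type library. The feedback inhibitor Socs1 stood at 88.0 FPKM in the Pkm2-/- library and 10.04 FPKM in the Wild Type library, and Irf8 at 135 FPKM in the Pkm2-/- library and 42.2 FPKM in the Wild Type library. The receptor chain Ifngr1 was within 2-fold, at 65.8 FPKM in the Pkm2-/- library and 82.0 FPKM in the Wild Type library. Ifng itself, which lymphocytes make, was listed at 0.667 FPKM in the Pkm2-/- library on about 17 fragments and was not listed in the Wild Type library.

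Lists of other inducers were compared in the same way. At the shares over all genes, lists this short would hold few or no genes past 2-fold. Of 12 genes of the type I and III interferon axis, 9 averaged 1 FPKM or more, none was at least 2-fold higher and 1 was at least 2-fold lower, with a median log2 ratio of -0.18. The lower gene was Irf7, at 91.5 FPKM in the Pkm2-/- library and 266 FPKM in the Wild Type library, the most abundant gene of the list. Of 20 genes of the IL-17 and NF-kB axis, through which Cxcl1, Cxcl5 and Ccl20 are induced, 15 averaged 1 FPKM or more and none was at least 2-fold apart, with a median log2 ratio of -0.04. Their most abundant gene, the receptor chain Il17rc, stood at 66.2 FPKM in the Pkm2-/- library and 51.5 FPKM in the Wild Type library, and Il17a and Il17f were listed in neither library.

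Markers of leukocytes differed between the libraries alongside the CXCR3 ligands. The marker lists were counted at 2-fold on the log2(FPKM + 1) scale, so a plain ratio past 2-fold was not always counted. On that scale 1.42% of all genes were counted as higher and 1.9% as lower. All 8 T cell markers were listed in both libraries, none was at 0, and they summed to 34.9 FPKM in the Pkm2-/- library and 11.6 FPKM in the Wild Type library, with 4 of the 5 that passed the filter at least 2-fold higher. The defining gene Cd3e stood at 7.52 FPKM in the Pkm2-/- library and 2.05 FPKM in the Wild Type library. The 6 NK cell markers summed to 37.9 FPKM in the Pkm2-/- library and 7.50 FPKM in the Wild Type library, with none at 0 and 2 of 3 at least 2-fold higher, and most of the sum came from Gzma, which T cells express too. The defining NK cell gene Ncr1 stood at 0.158 FPKM in the Pkm2-/- library and 0.131 FPKM in the Wild Type library.

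Macrophages and dendritic cells can make CXCR3 ligands as well, and their 9 markers summed to 10.9 FPKM in the Pkm2-/- library and 7.57 FPKM in the Wild Type library, with none at 0 and 1 of 5 at least 2-fold higher. The counted gene was Itgax, at 1.71 FPKM in the Pkm2-/- library and 0.355 FPKM in the Wild Type library. Of the 5 that passed the filter, 3 had log2 ratios above 0. Cd68 and Lyz2 were at -0.04 and -0.08, and the counting intervals of their ratios included 1. The defining gene Adgre1 was below the filter, at 0.230 FPKM in the Pkm2-/- library and 0.0925 FPKM in the Wild Type library. It rested on about 15 fragments in the Pkm2-/- library and 6 in the Wild Type library. Its ratio of 2.48 had a counting interval of 0.830 to 7.12, which included 1. The 6 B and plasma cell markers summed to 31.9 FPKM in the Pkm2-/- library and 8.21 FPKM in the Wild Type library, with 2 of 3 at least 2-fold higher. The part of these cells in the levels of Cxcl9, Cxcl10, Cxcl11, Ccl5 and Ccl8 was not tested. In such bulk libraries a difference in the number of cells of a type and one in the RNA per cell cannot be told apart.

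The summed levels of the neutrophil, fibroblast, endothelial and erythrocyte lists were lower in the Pkm2-/- library, but only the erythrocyte list held genes counted as at least 2-fold lower. Of 7 neutrophil markers, 5 were at 0 in both libraries, among them S100a8, S100a9 and Mpo, and the sum of 13.2 FPKM in the Pkm2-/- library and 25.5 FPKM in the Wild Type library came almost wholly from Ly6g, the 1 gene of the list that passed the filter, which was within 2-fold. The 6 fibroblast markers summed to 1.35 FPKM in the Pkm2-/- library and 4.34 FPKM in the Wild Type library. Lum was at 0 in both, and Pdgfra was at 0 in the Pkm2-/- library. The 1 gene that passed the filter, Dcn, stood at 0.870 FPKM in the Pkm2-/- library and 2.65 FPKM in the Wild Type library. Its plain ratio of 0.328 (counting interval 0.251 to 0.421) was past 2-fold. Its log2 ratio on the FPKM + 1 scale was -0.97, so it was not counted. The 5 endothelial markers summed to 1.17 FPKM in the Pkm2-/- library and 1.97 FPKM in the Wild Type library, with Cdh5 at 0 in the Wild Type library, and none passed the filter. The 4 haemoglobin genes of erythrocytes summed to 1.79 FPKM in the Pkm2-/- library and 24.3 FPKM in the Wild Type library. All of them were at least 2-fold lower in the Pkm2-/- library. The part of any of these cell types in the chemokine levels was not tested.

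**Figure D5:**
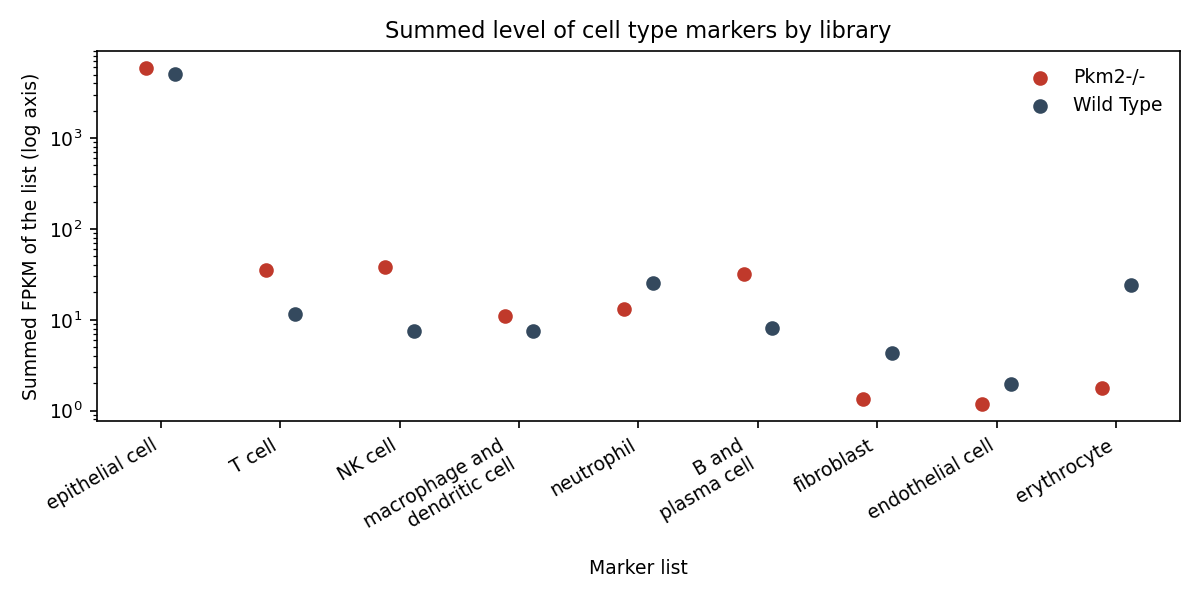
Summed FPKM of 9 lists of cell type markers (y axis, log scale) in the Pkm2-/- library (red, left) and the Wild Type library (blue, right). T cell, NK cell, macrophage and dendritic cell, and B and plasma cell lists lie higher in the Pkm2-/- library, and neutrophil, fibroblast, endothelial and erythrocyte lists lie lower.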

How the data were processed

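The deposited values were read as FPKM that the authors made, 1 value per Ensembl gene with a symbol and a locus. The files have no header. Bowtie2 2.2.9, TopHat2 2.1.1, Cufflinks 2.2.1, Cuffdiff 1.3.0 and 2.2.1 and the build mm8 are named, per the submitters' processing notes. The deposited loci overlapped the genes of GENCODE M21 on GRCm38 for 99.96% of the 99.4% of IDs found there, so GRCm38 coordinates are given. Since FPKM is relative to the mapped total, very abundant transcripts shift every other value. Only values above 0 are listed, and an unlisted gene was set to 0.

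Rows that share a symbol were summed. The log2 ratio was log2((Pkm2-/- FPKM + 1)/(Wild Type FPKM + 1)), which understates the difference of low genes, and a fold is the plain FPKM ratio. Genes that averaged 1 FPKM or more were counted at 2-fold. Counting intervals are Clopper-Pearson intervals for folds, and exact Poisson intervals for the levels of single libraries, on fragments implied by the step between the lowest values (transcripts over 1.5 kb) and the longest annotated transcript. Both are approximations and leave out differences between animals. All members were named, with members' receptors, the 4 highest and 4 lowest genes at least 2-fold apart and the most abundant gene of each further list, and for each CXCR3 ligand the 3 genes nearest in level. A gene that this rule names is not reported here. Members and lists were chosen with earlier results of these data known. Calls and the step were tested on simulated data. Python 3.11.15, numpy 2.4.6, pandas 2.3.3, scipy 1.17.1 and matplotlib 3.10.9 were used.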

Additional observations from a re-analysis of the deposited data

How the results depend on the processing

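The results were compared over 8 alternatives (pseudocounts of 0.1 and 5 FPKM, no filter and a minimum mean of 5 FPKM, 3 rescalings, and the highest row kept for a symbol). Only the 3 rescalings could change the sign of a chemokine's log2 ratio. No log2 ratio of the 10 chemokines changed sign under them. The counting interval of each fold was also put on the log2(FPKM + 1) scale, with the Wild Type level held as listed. Of 75 values under the alternatives, 68 lay within that rescaled interval of their gene and 7 did not, all 7 under the 2 pseudocounts. The 68 include values that could not differ from the main ones. These are the values under no filter, a minimum mean of 5 FPKM and the highest row kept for a symbol. The count of chemokines at least 2-fold higher was 3 throughout, except 2 with a pseudocount of 5 FPKM and 2 at a minimum mean of 5 FPKM, both times without Cxcl11. Cxcl11 was at 0.63 with a pseudocount of 5 FPKM, and Cxcl9 ranged over 1.97 to 4.23. The median of the CXCR3 ligands was 1.97 with a pseudocount of 5 FPKM and 2.91 at a minimum mean of 5 FPKM, and that of the neutrophil chemokines was -1.02 with a pseudocount of 0.1 FPKM. Over all genes, 176 were higher and 236 lower in the Pkm2-/- library. These counts were 272 and 361 with a pseudocount of 0.1 FPKM, 85 and 124 with 5 FPKM, and 111 and 154 for a minimum mean of 5 FPKM. No paired analysis was possible because each genotype has 1 library, and for the same reason no replicate could be left out. Depth limits Cxcl1 and Cxcl5, whose differences rest on 8 fragments or fewer per library.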

Other observations

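Genes whose level was nearest to each CXCR3 ligand in both libraries were sought by Euclidean distance on log2(FPKM + 1) among the 12429 genes, over the 2 libraries alone. Nearest to Cxcl9 were Ciita (20.7 FPKM in the Pkm2-/- library and 0.770 FPKM in the Wild Type library), Icam1 (12.7 FPKM in the Pkm2-/- library and 1.15 FPKM in the Wild Type library) and Gm12185 (10.3 FPKM in the Pkm2-/- library and 0.857 FPKM in the Wild Type library). Ciita encodes the activator of MHC class II genes and Icam1 an adhesion molecule for leukocytes. Nearest to Cxcl10 were Fabp6 (41.6 FPKM in the Pkm2-/- library and 7.64 FPKM in the Wild Type library), which encodes a bile acid binding protein of the ileum, Apol6 (32.2 FPKM in the Pkm2-/- library and 8.99 FPKM in the Wild Type library) and Inf2 (31.8 FPKM in the Pkm2-/- library and 5.29 FPKM in the Wild Type library). Nearest to Cxcl11 were Fcer1g (4.22 FPKM in the Pkm2-/- library and 0.804 FPKM in the Wild Type library), a signalling chain of Fc receptors on leukocytes, Rinl (3.74 FPKM in the Pkm2-/- library and 1.01 FPKM in the Wild Type library) and Apol11b (4.78 FPKM in the Pkm2-/- library and 0.801 FPKM in the Wild Type library).

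Among receptors outside those of the 10 chemokines, Ccr2, which marks inflammatory monocytes, stood at 0.697 FPKM in the Pkm2-/- library and 0.175 FPKM in the Wild Type library, a ratio of 3.99 (95% counting interval 2.38 to 6.90). It was named after its values were seen, and its mean was below 1 FPKM.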
